A study of Homo sapiens with 9 samples.

Results

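Genes that the tumor suppressor p53 switches on were read in the B6TC line and in its putative parents, MDA-MB-231 and ZR-75-1. The genes were chosen by name, and every probe set whose platform symbol was one of 9 names was taken: MDM2, CDKN1A, GDF15, SESN1, FDXR, ZMAT3, TP53I3, TP53INP1 and FAS. This gave 29 probe sets of 8 genes out of 54675 probe sets on the array. No probe set carried the symbol FDXR in the annotation used, so FDXR, a mitochondrial ferredoxin reductase, was not analysed here, nor was the gene of p53 itself. B6TC is an estrogen-independent, GFP-positive line that the labels describe as a fusion of the other lines. It was raised from a tumor of bone marrow-derived B6 cells in a nude mouse without estrogen supplementation, and was selected in G418. MDA-MB-231/GFP/Neo is an ER negative line, resistant to G418, and was grown from 1 GFP-transfected clone. ZR-75-1/GFP/puro is an ER positive line, resistant to puromycin. All 3 lines carry GFP and were cultured in medium with serum.

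p53 is a transcription factor that is kept low in unstressed cells and rises after DNA damage and other stress. It then binds DNA and activates genes that halt the cell cycle, repair DNA, change metabolism or kill the cell. MDM2, one of those genes, encodes the ubiquitin ligase that removes p53 and so closes a feedback loop. In breast cancer, p53 is often mutated. MDA-MB-231 is known to carry a missense mutant of p53, while ZR-75-1 is known as a line with the wild type protein. The paper's sequencing found in B6TC the same mutant as in MDA-MB-231. None of the genes depends on p53 alone, and p53 activity was not measured on the arrays.

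p53 binds a pair of adjoining decamers, each with a fixed C and G around its centre. The promoter windows of RefSeq (GRCh38.p14, 250 bases before to 50 after a start) were searched for this pair with no spacer and with the C and G of both decamers kept. The motif equals its own reverse complement, so that 1 reading covers both strands. Windows were listed for 8 of the 9 genes, 17 windows in all. Of 35116 windows of all genes, 0.285% held the pair with at most 2 mismatches and 1.12% with at most 3. MDM2 and FAS held it with 2 mismatches and SESN1, GDF15 and FDXR with 3. The best match of CDKN1A had 5 mismatches, that of ZMAT3 4 and that of TP53I3 10. These matches are letters in a window and do not show binding, and binding sites outside the windows were not looked for. The 3 matches of MDM2, FAS and SESN1 are shown, with the decamer pair in capitals. They were chosen by at most 3 mismatches and a stretch of 70 bases that lies wholly before a start, not by expression.
MDM2 (chr12:68808898-68808967, plus strand, before the third and the fourth of its listed starts): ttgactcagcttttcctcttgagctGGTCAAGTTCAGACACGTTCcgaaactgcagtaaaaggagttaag
FAS (chr10:88991284-88991353, plus strand): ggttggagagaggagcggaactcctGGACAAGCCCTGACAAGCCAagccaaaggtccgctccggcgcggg
SESN1 (chr6:109008993-109009062, minus strand): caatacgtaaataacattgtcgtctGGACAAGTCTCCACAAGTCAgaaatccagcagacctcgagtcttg

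There were 3 arrays for each line, and the labels call them technical replicates. The p-values therefore measure only the spread between arrays, whose SD had a median of 0.057 in B6TC, against 0.069 in MDA-MB-231 and against 0.068 in ZR-75-1 on the log2 scale. In these bulk extracts, fewer cells with a transcript and less of it per cell cannot be told apart. Between 33.90% and 34.75% of the probe sets of an array were at a log2 value of 6 or more. The lines matched their labels on 5 mesenchymal markers (VIM, CAV1, ANXA1, EGFR and SRGN), whose means were 10.03 to 13.62 in B6TC, against 10.03 to 13.69 in MDA-MB-231 and against 2.67 to 6.02 in ZR-75-1. Over 6 luminal markers the means were 4.51 to 8.65, 3.56 to 8.53 and 10.32 to 13.32 in the same order. For ESR1, the gene of ERα, they were 6.30, 6.64 and 7.19. PTPRC of leukocytes and ALB of hepatocytes were at 2.69 to 3.42 in all lines, and PECAM1 of endothelium at 6.68 in B6TC, against 6.69 in MDA-MB-231 and against 5.60 in ZR-75-1. The third B6TC array stood apart. Of 226 probe sets with high values only in ZR-75-1, 199 were highest on that array among the B6TC arrays. Their median lay 0.49 above the MDA-MB-231 mean on it, against 0.065 on the first and 0.031 on the second. Values without the third array are therefore given for the member genes and for the counts of the lists, and its part in the results was not tested.

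Testing required a log2 value of 6 or more on no fewer than 3 arrays, which 21095 probe sets met. A call was an adjusted p (Benjamini-Hochberg, limma, over all of these) no larger than 0.05. Of the 29 probe sets, 15 were tested and 14 were set aside. Some of the 15 passed this filter only through the line in which they are high. The TP53INP1 probe set and 2 of the 3 FAS probe sets reached 6 on the 3 ZR-75-1 arrays alone, and 3 of the 4 ZMAT3 probe sets only on the 6 arrays of B6TC and MDA-MB-231. The remaining FAS probe set (204780_s_at) reached 6 on the 6 arrays of B6TC and ZR-75-1 but on no MDA-MB-231 array, and the GDF15 probe set on 5 arrays, none of them of B6TC. In 10 of the 15 the mean of at least 1 line was under 6. No measure of background was at hand, so how much of a value under 6 is signal is not known, and no fold is given against such a line. The counts that follow are for this reason a description.

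Between B6TC and ZR-75-1 all 15 probe sets were called, 10 lower and 5 higher in B6TC, where 40.6% of all tested probe sets were lower and 43.0% higher. By gene, with the probe set of highest mean, 6 of 8 were lower and 2 higher (41.6% and 42.8% of all genes). MDM2, CDKN1A, GDF15, SESN1, TP53INP1 and FAS were lower in B6TC, and ZMAT3 and TP53I3 were higher. Between MDA-MB-231 and ZR-75-1, 10 probe sets were lower, 4 higher and 1 did not pass (39.9% lower and 43.8% higher over all tested probe sets), and 7 of 8 genes were lower and 1 higher (41.9% and 42.5%). Between B6TC and MDA-MB-231, 9 probe sets were higher in B6TC, 1 was lower and 5 did not pass, against 33.9% higher and 31.3% lower over all. By gene, 4 were higher and 1 lower, with 3 short of the threshold (36.5% and 28.5%). The higher share exceeds the background, but the 9 probe sets come from 5 genes and probe sets of 1 gene are not independent. The median log2 difference over the 15 was 0.24 for B6TC over MDA-MB-231, −0.62 for B6TC over ZR-75-1 and −0.90 for MDA-MB-231 over ZR-75-1. The corresponding medians over all tested probe sets were 0.0086, 0.0074 and 0.032. Without the third B6TC array, 8 of the 15 were higher and 1 lower than in MDA-MB-231, and 5 were higher and 10 lower than in ZR-75-1. Of the 15, 10 were called in all 3 comparisons, as were 47.9% of all tested probe sets.

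**Figure D1:**
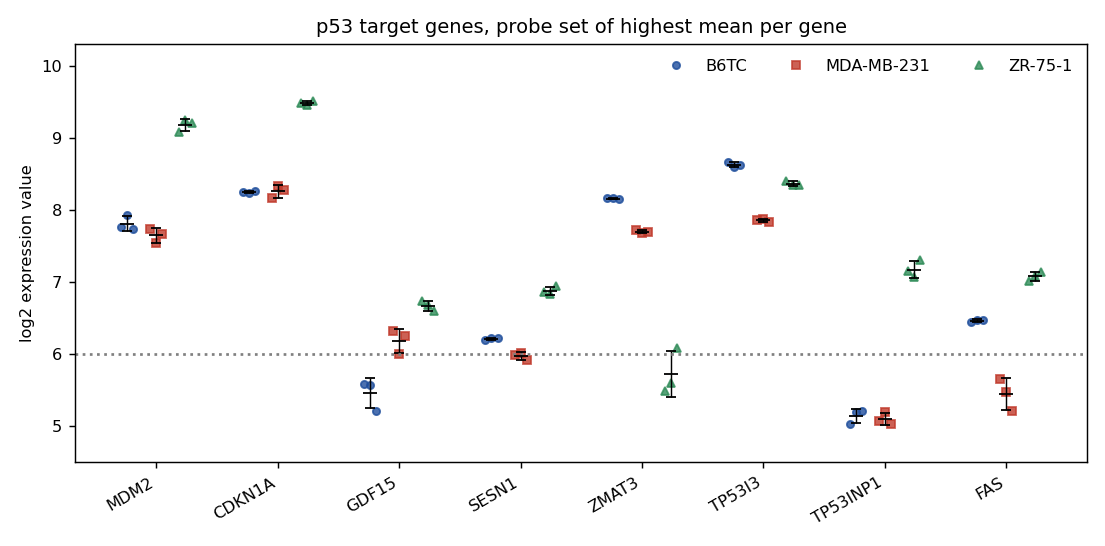
Log2 expression value on the y axis of the probe set of highest mean of each of 8 p53 target genes, on the x axis. Symbols are single arrays, blue circles for B6TC, red squares for MDA-MB-231 and green triangles for ZR-75-1. Black bars give each line's mean and SD (3 arrays), and the dotted line is the filter level of 6. ZR-75-1 is highest for 6 of the 8 genes, at 9.17 for MDM2 and 9.48 for CDKN1A, and lowest for ZMAT3, at 5.72.

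MDM2 was higher in ZR-75-1 than in either other line. At its probe set of highest mean (229711_s_at) the log2 level was 7.76, 7.93 and 7.74 across B6TC, 7.74, 7.54 and 7.67 across MDA-MB-231 and 9.08, 9.24 and 9.20 across ZR-75-1 arrays. The ZR-75-1 arrays lay apart from all others. Those of B6TC and MDA-MB-231 touched only at a shared value, 7.73782 on the lowest B6TC array and on the highest MDA-MB-231 array. MDM2 was below the ZR-75-1 level in B6TC by a log2 difference of −1.36 (standard error, SE, 0.073, limma adjusted p = 2.8e-08), a level of 0.389 of that in ZR-75-1, or by −1.33 without the third B6TC array. Its difference of 0.16 between B6TC and MDA-MB-231 did not pass limma (adjusted p = 0.0753, 95% interval −0.0014 to 0.33). It was 0.20 without the third B6TC array (adjusted p = 0.0613), and between 0.10 and 0.21 when any 1 array was left out, the lowest without the second B6TC array (limma adjusted p = 0.261). It passed limma without the first MDA-MB-231 array, at 0.21 (adjusted p = 0.0457), with robust and trended variances, at 0.16 (adjusted p = 0.0417), and with arrays centered on their medians, at 0.20 (adjusted p = 0.0412), but not under the other alternatives, among them quantile normalization, at 0.12 (adjusted p = 0.114), and robust regression, at 0.16 (adjusted p = 0.106). A second probe set (225160_x_at) was at 7.07 ± 0.037 (SD, n = 3 arrays) in B6TC, against 6.75 ± 0.026 in MDA-MB-231 and against 8.59 ± 0.038 in ZR-75-1. All its arrays were separate between the lines, and it was above the MDA-MB-231 level in B6TC by 0.32 (SE 0.043, adjusted p = 0.000109 by limma). Without the third B6TC array this was 0.32.
The remaining tested probe set (244616_x_at) varied least between the lines, at 6.50 in B6TC, against 6.61 in MDA-MB-231 and against 6.78 in ZR-75-1. Its difference of −0.28 between B6TC and ZR-75-1 (limma adjusted p = 0.0124) was −0.20 without the second B6TC array (limma adjusted p = 0.0506). Between B6TC and MDA-MB-231 it was −0.11 (limma adjusted p = 0.308), and without the first B6TC array −0.20 (limma adjusted p = 0.0375). Leaving out the third B6TC array gave −0.26 and −0.090 in these comparisons. The other 7 probe sets of MDM2 stayed under 6 on all arrays. The highest of these was 217373_x_at, at 5.11 in B6TC, against 5.03 in MDA-MB-231 and against 5.92 in ZR-75-1. At 205386_s_at the level was 4.45 ± 0.079 in B6TC, against 3.43 ± 0.14 in MDA-MB-231 and against 5.39 ± 0.18 in ZR-75-1, with no overlap between the lines. The probe sets of MDM2 thus kept ZR-75-1 highest at 8 of 10, with differences between B6TC and MDA-MB-231 of −0.13 to 1.02.

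CDKN1A encodes p21, the inhibitor of cyclin-dependent kinases that halts the cell cycle. It had 1 probe set, at 8.25, 8.24 and 8.26 across B6TC, 8.16, 8.33 and 8.28 across MDA-MB-231 and 9.48, 9.45 and 9.51 across ZR-75-1 arrays. The B6TC values fell within the MDA-MB-231 range, and all ZR-75-1 arrays were higher. CDKN1A was below the ZR-75-1 level in B6TC, at a log2 difference of −1.23 (SE 0.051, adjusted p = 3.8e-09 by limma), or −1.24 without the third B6TC array, and lower in MDA-MB-231 than in ZR-75-1 by −1.23 (limma adjusted p = 3.9e-09). Between B6TC and MDA-MB-231 the difference was −0.0087 (limma adjusted p = 0.891), with a 95% interval of −0.12 to 0.11, and its sign changed with arrays centered on their medians (0.031).
SESN1, a sestrin that restrains mTORC1 signaling, lay between the parental lines. Its level was 6.19, 6.22 and 6.22 in B6TC, against 5.99, 6.02 and 5.91 in MDA-MB-231 and against 6.86, 6.83 and 6.94 in ZR-75-1. No arrays overlapped between the lines. It was above the MDA-MB-231 level in B6TC by 0.24 (SE 0.048, adjusted p = 0.00158 by limma), or 0.23 without the third B6TC array, and lower than in ZR-75-1 at −0.67 (limma adjusted p = 3.0e-07), also −0.67 without that array. The levels of SESN1 were close to the filter level of 6.

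FAS, the death receptor of the tumor necrosis factor receptor family, showed the largest difference between B6TC and MDA-MB-231 among the tested probe sets of these genes. At 204780_s_at it was at 6.45, 6.48 and 6.48 in B6TC, against 5.66, 5.47 and 5.21 in MDA-MB-231 and against 7.02, 7.09 and 7.14 in ZR-75-1. The lines did not overlap. FAS was above the MDA-MB-231 level in B6TC by 1.02 on the log2 scale (SE 0.094, adjusted p = 8.4e-06 by limma), with MDA-MB-231 under the filter level of 6 on all arrays. It was below the ZR-75-1 level in B6TC, at a log2 difference of −0.62 (SE 0.094, adjusted p = 0.000126 by limma). Without the third B6TC array these differences were 1.01 and −0.62. As 204780_s_at passed the filter without any MDA-MB-231 array, its p-value against MDA-MB-231 is no separate support.
The probe sets 204781_s_at and 215719_x_at kept this order, with log2 differences of 0.55 (limma adjusted p = 0.000913) and 0.33 (limma adjusted p = 0.0185) between B6TC and MDA-MB-231. Both passed the filter only through ZR-75-1. The means of B6TC and MDA-MB-231 were under 6, at 5.70 and 5.14 for 204781_s_at and at 4.82 and 4.48 for 215719_x_at. The p-values thus compare values under the filter level and are no separate support for the order. The call at 215719_x_at was lost without the second MDA-MB-231 array, at 0.26 (limma adjusted p = 0.0734). Leaving out the third B6TC array gave 0.55 at 204781_s_at and 0.43 at 215719_x_at. At 204781_s_at the level was 5.70 on each of the B6TC arrays, identical to 5 decimals, so that its SD of 0 there is no measure of spread. An untested probe set, 216252_x_at, had means of 4.35 in B6TC, against 3.79 in MDA-MB-231 and against 5.29 in ZR-75-1, while 233820_at was at 3.89, 4.05 and 4.17. Set on a scale from 0 at the MDA-MB-231 mean to 1 at the ZR-75-1 mean, the B6TC level was at 0.62, 0.48 and 0.20 for the 3 tested probe sets of FAS. The same position was 0.11 and 0.17 for the first and second probe sets of MDM2, 0.26 for SESN1, −0.0071 for CDKN1A and 0.021 for TP53INP1. It was 1.52 for TP53I3 and −0.23 to −0.043 for the tested probe sets of ZMAT3, outside the parental means. GDF15 and the remaining tested probe set of MDM2 were not placed, as their parental means were closer than a set minimum. MDA-MB-231 minus ZR-75-1 was −0.48 for GDF15 and −0.17 for that MDM2 probe set. TP53I3 was placed on a difference little larger than that of GDF15, −0.51. The B6TC mean of GDF15 also lay outside the parental means, below both. The MDA-MB-231 means of FAS, SESN1 and TP53INP1 and the ZR-75-1 means of ZMAT3 were under 6. So were the B6TC means of TP53INP1 and of the FAS probe sets 204781_s_at and 215719_x_at.

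TP53INP1 encodes a nuclear protein that acts in autophagy and in cell death. At 225912_at it was at 5.04, 5.20 and 5.21 in B6TC, against 5.08, 5.20 and 5.04 in MDA-MB-231 and against 7.15, 7.07 and 7.31 in ZR-75-1. It was thus under the filter level of 6 on all arrays of B6TC and MDA-MB-231, which overlapped, and above it on those of ZR-75-1. The log2 difference was −2.02 between B6TC and ZR-75-1 (SE 0.075, adjusted p = 1.6e-09 by limma), or −2.05 without the third B6TC array. Between B6TC and MDA-MB-231 it was 0.044 (limma adjusted p = 0.628, 95% interval −0.12 to 0.21), or 0.015 without that array. The probe set passed the filter only through ZR-75-1, so its p-value against ZR-75-1 is no separate support. The other probe sets of TP53INP1 were at 3.06 to 4.60 in all lines.
GDF15, a secreted cytokine related to TGF-β, was lowest in B6TC. At 221577_x_at the values were 5.58, 5.57 and 5.22 in B6TC, against 6.32, 5.997 and 6.25 in MDA-MB-231 and against 6.73, 6.68 and 6.59 in ZR-75-1. The lines did not overlap, and the third B6TC array was the lowest of all. GDF15 was below the MDA-MB-231 level in B6TC, at a log2 difference of −0.73 (SE 0.11, adjusted p = 0.000218 by limma) and below its ZR-75-1 level, at −1.21 (SE 0.11, adjusted p = 1.9e-06 by limma). With that array left out the differences were −0.61 and −1.09. The other 2 probe sets of GDF15 were at 3.88 to 4.31 in all lines, so that the difference rests on 1 probe set. That probe set passed the filter without any B6TC array, so the p-values of B6TC against the other lines are no separate support.

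ZMAT3, a zinc finger protein that binds RNA, was lowest in ZR-75-1, where MDM2 was highest. At 228315_at it was at 8.16, 8.16 and 8.15 in B6TC, against 7.72, 7.68 and 7.69 in MDA-MB-231 and against 5.48, 5.60 and 6.08 in ZR-75-1. B6TC was above MDA-MB-231 on every array and both were far above ZR-75-1. The level in B6TC exceeded that in ZR-75-1, whose mean was under 6, by 2.43 on the log2 scale (SE 0.12, adjusted p = 1.7e-08 by limma), and exceeded MDA-MB-231 by 0.46 (SE 0.12, adjusted p = 0.00792 by limma). These differences were 2.44 and 0.46 without the third B6TC array.
The other tested probe sets of ZMAT3 also placed B6TC first and ZR-75-1 last. Their log2 differences between B6TC and ZR-75-1 were 2.35 at 227221_at, 1.74 at 219628_at and 1.20 at 225725_at, with limma adjusted p from 2.3e-10 to 2.1e-09. The ZR-75-1 means there were 5.52, 5.39 and 5.29, under the filter level of 6. These probe sets passed the filter only through B6TC and MDA-MB-231, so their p-values against ZR-75-1 are no separate support. Between B6TC and MDA-MB-231 the differences were 0.29 (limma adjusted p = 0.00379), 0.20 (limma adjusted p = 0.0231) and 0.050 (limma adjusted p = 0.331). The call of 219628_at was lost without the third B6TC array, at 0.16 (limma adjusted p = 0.0840). It was also lost without the second or the third MDA-MB-231 array, at 0.18 each (limma adjusted p = 0.0744 and 0.0738). At 1555609_a_at, which was not tested, the means were 4.21 in B6TC, against 4.28 in MDA-MB-231 and against 3.71 in ZR-75-1.
TP53I3, a quinone oxidoreductase also called PIG3, was highest in B6TC. Its 1 probe set was at 8.66, 8.60 and 8.63 in B6TC, against 7.86, 7.87 and 7.84 in MDA-MB-231 and against 8.41, 8.34 and 8.34 in ZR-75-1. The lines did not overlap. It was 1.71-fold above its MDA-MB-231 level in B6TC, at 0.77 (SE 0.041, adjusted p = 3.0e-07 by limma), and 1.20-fold higher than in ZR-75-1, at 0.26 (SE 0.041, adjusted p = 0.000148 by limma). Both were nearly the same without the third B6TC array, at 0.77 and 0.27.

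**Figure D2:**
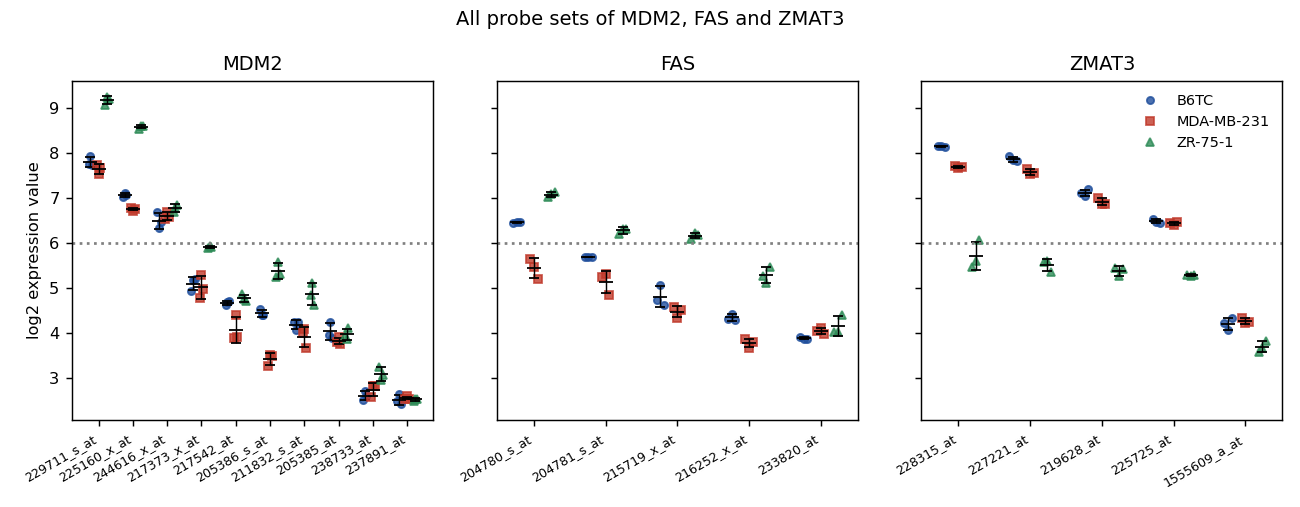
Log2 expression value on the y axis of every probe set of MDM2, FAS and ZMAT3, on the x axes, with blue circles for B6TC arrays, red squares for MDA-MB-231 and green triangles for ZR-75-1. Bars are the mean and SD of 3 arrays and the dotted line is the filter level of 6. Of the 10 probe sets of MDM2, 7 lie under 6 on all arrays, and all 4 tested probe sets of ZMAT3 have ZR-75-1 below both other lines.

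**Figure D3:**
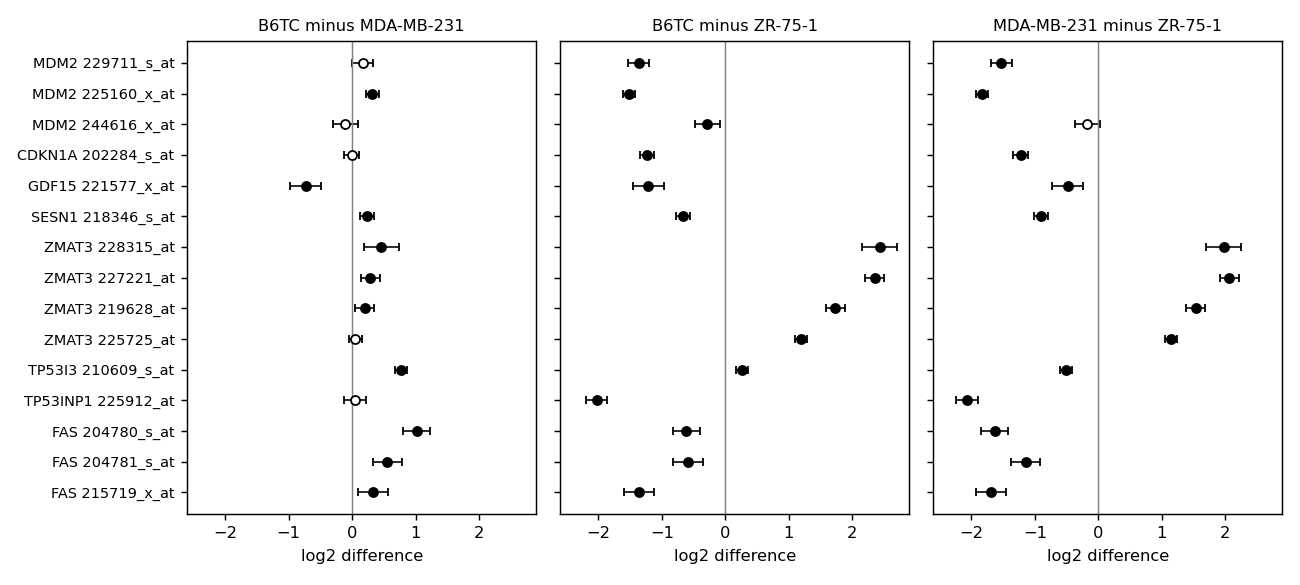
Log2 difference with its 95% interval, on the x axes, for the 15 tested probe sets on the y axis in the 3 comparisons, with B6TC or MDA-MB-231 as the first line named. Filled points passed limma at an adjusted p of 0.05 or less and open points did not. FAS (1.02) and TP53I3 (0.77) lie farthest right in the first panel and GDF15 (−0.73) farthest left.

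Other genes that p53 is known to activate moved in both directions. Of 41 listed genes, 38 had a probe set and 33 were tested, with 1 probe set each. Between B6TC and ZR-75-1, 16 were lower, 12 higher and 5 not called (median −0.13), where 41.6% of all genes were lower and 42.8% higher. Between B6TC and MDA-MB-231, 17 were higher, 7 lower and 9 not called (median 0.14), where 36.5% of all genes were higher and 28.5% lower. These shares of all genes are also the background of each list that follows. Over all 10751 genes the medians were −0.0050 and 0.036. Without the third B6TC array the counts were 16 lower and 12 higher against ZR-75-1, and 16 higher and 7 lower against MDA-MB-231.
Among the 10 tested genes of cell cycle arrest and feedback, 7 were below the ZR-75-1 level in B6TC and 2 were higher (41.6% and 42.8% of all genes). PPM1D, the phosphatase that turns off p53 signaling, was at 8.31 in B6TC, against 7.79 in MDA-MB-231 and against 10.92 in ZR-75-1, and was below the ZR-75-1 level in B6TC, at a log2 difference of −2.61 (limma adjusted p = 1.1e-11). TOB1, an antiproliferative protein, was lower, at −2.56. Against MDA-MB-231, 6 of the 10 were higher and 2 lower (5 and 2 without the third B6TC array), with SFN, the 14-3-3σ protein, higher by 0.75 and PPM1D by 0.52.
Among 12 genes of cell death, 6 were above the ZR-75-1 level in B6TC and 3 lower (42.8% and 41.6% of all genes). PMAIP1, which encodes the BH3-only protein NOXA, was at 11.16 in B6TC, against 10.92 in MDA-MB-231 and against 6.95 in ZR-75-1, a log2 difference of 4.21 between B6TC and ZR-75-1. PERP, a protein of desmosomes and of cell death, was lower, at −2.05. Against MDA-MB-231, 7 were higher and 2 lower, with CYFIP2, an actin regulator, higher by 1.11 and APAF1 of the apoptosome by 0.68.
Among 11 genes of DNA repair and metabolism, 6 were below the ZR-75-1 level in B6TC and 4 higher (41.6% and 42.8% of all genes). DDB2, which recognizes ultraviolet damage in DNA, was at 6.37 in B6TC, against 7.27 in MDA-MB-231 and against 9.66 in ZR-75-1. It was lowest in B6TC, with differences of −0.90 against MDA-MB-231 and −3.29 against ZR-75-1. GPX1, a glutathione peroxidase, was at 11.03, 11.30 and 3.71 in the same order. Against MDA-MB-231, 4 of the 11 were higher and 3 lower, and DRAM1, an autophagy protein, was higher by 0.42. Between MDA-MB-231 and ZR-75-1, 17 of the 33 genes were lower and 10 higher (41.9% and 42.5% of all genes). For the lists of cell death and of DNA repair and metabolism the counts of B6TC against each parent did not change without the third B6TC array.

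The 15 listed regulators of p53 were all tested. MDM4, the partner of MDM2 that holds p53 inactive, was at 7.58 in B6TC, against 8.51 in MDA-MB-231 and against 9.19 in ZR-75-1, lower in B6TC by −0.93 and −1.61. ATM, the kinase that signals double-strand breaks, was at 8.98, 8.37 and 6.25, and CHEK2, a kinase downstream of it, at 6.41, 6.26 and 8.49. EP300, an acetyltransferase, was above the MDA-MB-231 level in B6TC by 0.74. In all, 7 were above and 5 below the MDA-MB-231 level in B6TC (36.5% and 28.5% of all genes), and 7 higher and 7 lower than in ZR-75-1 (42.8% and 41.6%). These counts were the same without the third B6TC array. Between MDA-MB-231 and ZR-75-1, 5 were higher and 8 lower (42.5% and 41.9% of all genes). TP73, a gene of the p53 family, was at 5.81 in B6TC, against 6.08 in MDA-MB-231 and against 6.12 in ZR-75-1. Its difference of −0.27 between B6TC and MDA-MB-231 passed limma (adjusted p = 0.0201) with all arrays but not without the second or the third B6TC array, nor without the first or the third MDA-MB-231 array.
Genes of mitosis that are lowered through p21 and the DREAM repressor complex were below the MDA-MB-231 level in B6TC at 10 of 14, with 1 higher and a median of −0.26, where 28.5% of all genes were lower and 36.5% higher. PLK1, a mitotic kinase, was lower, at −0.90 and CCNB2, a cyclin of mitosis, at −0.48. Without the third B6TC array 9 were lower and 0 higher (CDK1, the 1 that was higher, by 0.13, no longer passed limma). Against ZR-75-1, 5 were lower and 5 higher (41.6% and 42.8% of all genes, and 4 each without the third B6TC array), with MYBL2, a transcription factor, at −1.03 and the checkpoint kinase BUB1 at 0.78. Between MDA-MB-231 and ZR-75-1, 9 were higher and 2 lower (42.5% and 41.9% of all genes).

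**Figure D4:**
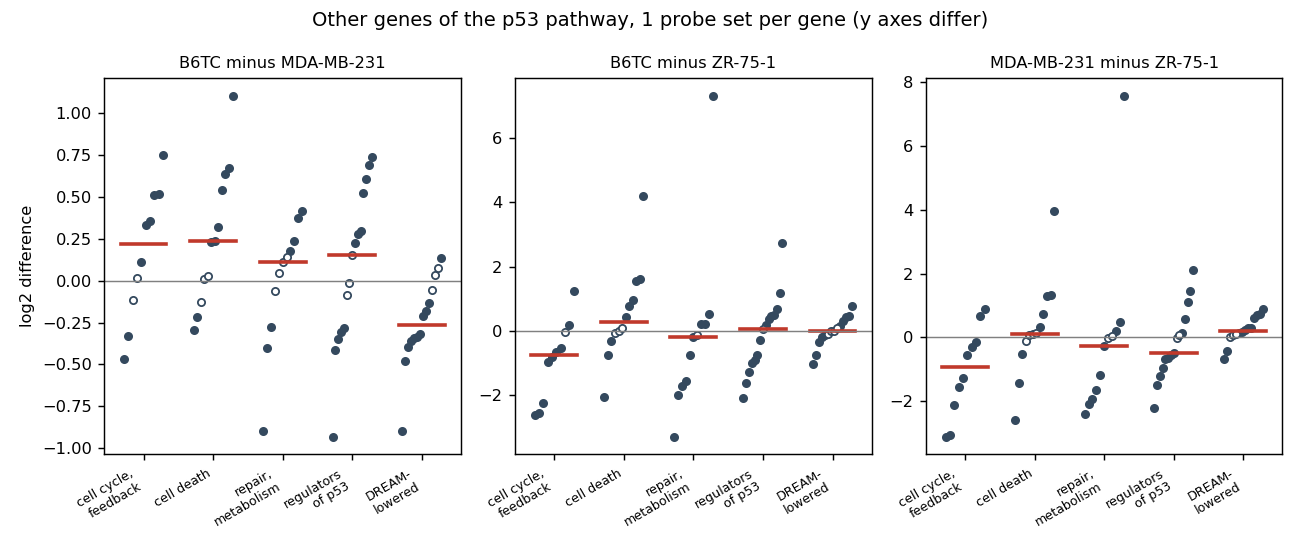
Log2 difference on the y axes (scales differ) of other p53-activated genes in 3 functional groups, of regulators of p53 and of genes lowered through the DREAM complex, on the x axes, with 1 probe set per gene. Filled points passed limma at an adjusted p of 0.05 or less, open points did not, and red bars are group medians. In the first panel the DREAM-lowered genes have a median of −0.26, and in the second GPX1 is highest at 7.31.

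The genes most like each member over the 9 arrays were found by the root mean square difference of values centered on their own means, among 10743 other genes. With 3 lines such a match rests on little more than 3 levels. For CDKN1A the nearest were TANGO2, TMED10 and CENPX, at 0.037, 0.050 and 0.050 on the log2 scale. For MDM2 they were NHSL1, B3GALNT1 and BCR (0.064, 0.071 and 0.075), for SESN1 NT5C3A, PTP4A2 and CBX1 (0.029, 0.031 and 0.041), and for FAS PPP1R21, TSPYL1 and FRMD8 (0.090, 0.092 and 0.10). For TP53I3 they were LIN52, HNRNPD and MRPS18B (0.045, 0.051 and 0.052), and for TP53INP1 ZMYM2, TET3 and ATP6AP1 (0.077, 0.090 and 0.094). ZMAT3 was nearest to SNHG33, CREBRF and RRAGD (0.083, 0.098 and 0.12), and GDF15 to BUD23, DUSP23 and PPP1R12B (0.13 each). None of these was in the lists of p53-activated genes above. Those lists hold only 33 of the 10743 genes compared, so their absence says little.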

How the data were processed

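RNA from the B6TC line and from MDA-MB-231 and ZR-75-1 was hybridized to Affymetrix Human Genome U133 Plus 2.0 arrays, and each line had 3 technical replicates. For every probe set the deposited value is a log2 expression level. The submitters' processing notes name Affymetrix Expression Console and RMA, whereas the methods name GC-RMA, so the background correction behind low values is not settled and could not be repeated. Control probe sets (62) were left out. Symbols came from the platform annotation, updated by gene identifier against GRCh38.p14. A probe set was tested at a log2 value of at least 6 on at least 3 of 9 arrays. limma 3.58.1 in R 4.3.3 was fitted over all 9 arrays with 1 mean per line, with Benjamini-Hochberg adjustment within each comparison, and was tested on simulated data. Each gene was read at the probe set with its highest mean. All members are named. Of the other lists (p53-activated genes, regulators of p53, the p53 family and DREAM-lowered genes) the 2 genes of largest absolute difference per comparison could be named, as were the markers and, for each member, the 3 genes of most similar pattern. CDK1 was named after its values were seen. The members and lists were chosen with earlier results of these data known. The alternatives were other filters, robust regression, robust and trended variances, median centering, quantile normalization, fits to 2 lines, a replicate block, a fold minimum, the mean of a gene's probe sets and leaving out each array. Their use on counts of genes and lists was added after seeing the data. Sequences are from RefSeq (GRCh38.p14).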

Additional observations from a re-analysis of the deposited data

How the results depend on the processing

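Of 747 alternative values of the 45 log2 differences of the tested probe sets, 731 kept their direction and side of the threshold, 6 no longer passed, 7 newly passed and 3 changed sign. All 3 sign changes were of CDKN1A between B6TC and MDA-MB-231, at 0.031 with arrays centered on their medians and between −0.058 and 0.029 when an array was left out. With no filter, 23 of 29 probe sets were called between B6TC and ZR-75-1, in place of 15 of 15. With a filter at 7, 9 probe sets were tested and 6, 9 and 9 were called in B6TC against MDA-MB-231, B6TC against ZR-75-1 and MDA-MB-231 against ZR-75-1, and 3 genes were called in the first of these. With a fold minimum of 2, 1 of 15 probe sets and 1 of 8 genes were called between B6TC and MDA-MB-231. By gene, 5 of 8 were called between B6TC and ZR-75-1 and 5 of 8 between MDA-MB-231 and ZR-75-1. Over all 21095 tested probe sets the calls were then 813, 6484 and 6635 in the same order. The latter count probe sets and are no background for the counts of genes. When all probe sets of a gene were averaged, 4 genes were tested and 3, 4 and 4 were called. The shares over all genes are not given for this setting. Leaving out 1 array gave 8 to 11 called probe sets between B6TC and MDA-MB-231, 14 to 15 between B6TC and ZR-75-1 and 14 to 15 between MDA-MB-231 and ZR-75-1. The calls over all tested probe sets were then 12674 to 13872, 17117 to 17884 and 17207 to 17624.
The titles number the technical replicates of each line. The deviations of same-numbered arrays from their line means had correlations of −0.10 to 0.18. Pairs with different numbers are not given beside them, so whether same-numbered arrays share more than a number is not known. A replicate block gave 10, 15 and 14 called probe sets, as without it. Of 378 counts of list genes under an alternative, 353 stayed within 1.5 times and 25 were lower, of which 19 were with the fold minimum. No measure of background was at hand, which limits the 14 probe sets that were not tested and 10 of the 15 tested ones, in which at least 1 line had a mean under 6.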

Other observations

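Many values were identical to 5 decimals on several arrays. This held at 17 of the 29 probe sets of the p53 target genes and at 49.1% of all 54613 probe sets without controls, and at 8 of the 15 tested ones and 23.1% of all tested probe sets. The MDM2 probe set 244616_x_at was at 6.69601 on 1 array of each line, and the FAS probe set 204781_s_at was at 5.69619 on all B6TC arrays. At 265 tested probe sets the 3 arrays of at least 1 line were identical. The SD of such a line is 0, while the tests use a spread over all lines. What produced the shared values was not tested.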
